A study of Vitis amurensis with 6 samples.

Results

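The genes described here are 10 ethylene-responsive factor (ERF) genes, annotated as of group IX type, which form a tandem array in the grape gene numbering. All carry chromosome field 16 and scaffold field 0013 in their identifiers, with gene numbers from g00950 to g01120, and they are 10 of the 31845 identifiers in the table. The members were selected on their level after cold against their level in warm plants, so that difference is given as a description. The members entered the fit over all genes, but their calls stand only beside the share of all genes called and support nothing. The deposited table does not pair identifiers with names. The ERF annotation is the one under which the array was selected, and neither it nor the place on the chromosome was checked against a sequence.

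RNA was sequenced from leaves of the wild, winter-hardy grape Vitis amurensis. A cold and a control group of wild-type, 1-month-old in vitro plants were compared, with 3 libraries in each. The cold group spent 2 h at 4 °C in a prechilled incubator, and the control group was kept at 26 °C, both under light of about 100 µmol per square metre and second. Both groups had been subcultured on B5 medium with the auxin IBA in days of 16 h light and 8 h dark. The labels do not say if replicate libraries stem from different plants or cultures, so p-values reflect the spread between these samples, which may be technical. Temperature, the 2 h that passed and the move to the incubator cannot be told apart.

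ERF proteins are plant transcription factors with an AP2/ERF domain that binds DNA. In Arabidopsis, members of group IX bind the GCC box in promoters of defence genes and act where ethylene and jasmonate signals meet. In tobacco, tomato and Catharanthus, clustered genes of the same group control the synthesis of defence alkaloids. No role of a single grape member is given here, since the sources used do not annotate them further.

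Library totals implied by the FPKM values ran from 16437001 to 21217704 reads, with each cold total above each control total. Reads recovered in genes made up nearly all of each total, such as 16597264 of 16657708 in control library 1. The totals need not equal the number of reads sequenced. Control library 1 stood apart from the other control libraries in a way that touches most of the results below. Over all 17155 tested genes its level was at least 2-fold the mean of control libraries 2 and 3 in 4.55%, but in 35.6% of the 362 genes called at least 4-fold higher after cold. The labelled leaf tissue was not checked against marker genes, since the identifiers are not paired with names.

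Together the 10 ERF genes were far more abundant in cold leaves than in warm leaves. Their summed level was 239, 50.9 and 79.0 FPKM (fragments scaled to gene length and library size) in control libraries 1, 2 and 3. It was 1951, 1465 and 1716 FPKM in cold libraries 1, 2 and 3. The groups did not overlap, and the lowest cold library lay 6.12-fold above the highest control library. The means were 123 ± 102 FPKM (SD, n = 3) in control and 1711 ± 243 FPKM (SD, n = 3) in cold, a ratio of 13.9. Control library 1 held most of the control sum: without it the mean was 65.0 FPKM and the ratio 26.3. In reads, the 10 members took 0.0262%, 0.00562% and 0.00866% of the implied control totals and 0.215%, 0.163% and 0.189% of the implied cold totals. In leaf tissue a change in the number of cells that express a gene and a change in RNA per cell cannot be told apart.

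Each of the 10 members was higher in every cold library than in every control library, which also held for 31.6% of all tested genes. All 10 were called higher (limma-trend, adjusted p under 0.05), as were 21.0% of the tested genes, and all 10 were called with at least a 2-fold rise, as were 6.60%. Because the members were chosen on this contrast, nothing is read from these counts. The log2 changes, on the log2(FPKM + 1) scale, ran from 2.71 to 4.81 with a median of 3.68, where the median over all tested genes was 0.08. By the ratio of mean FPKM the members were between 5.33-fold and 28.3-fold higher. Of the 10, 9 were at least 8-fold higher by this ratio.

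**Figure D1:**
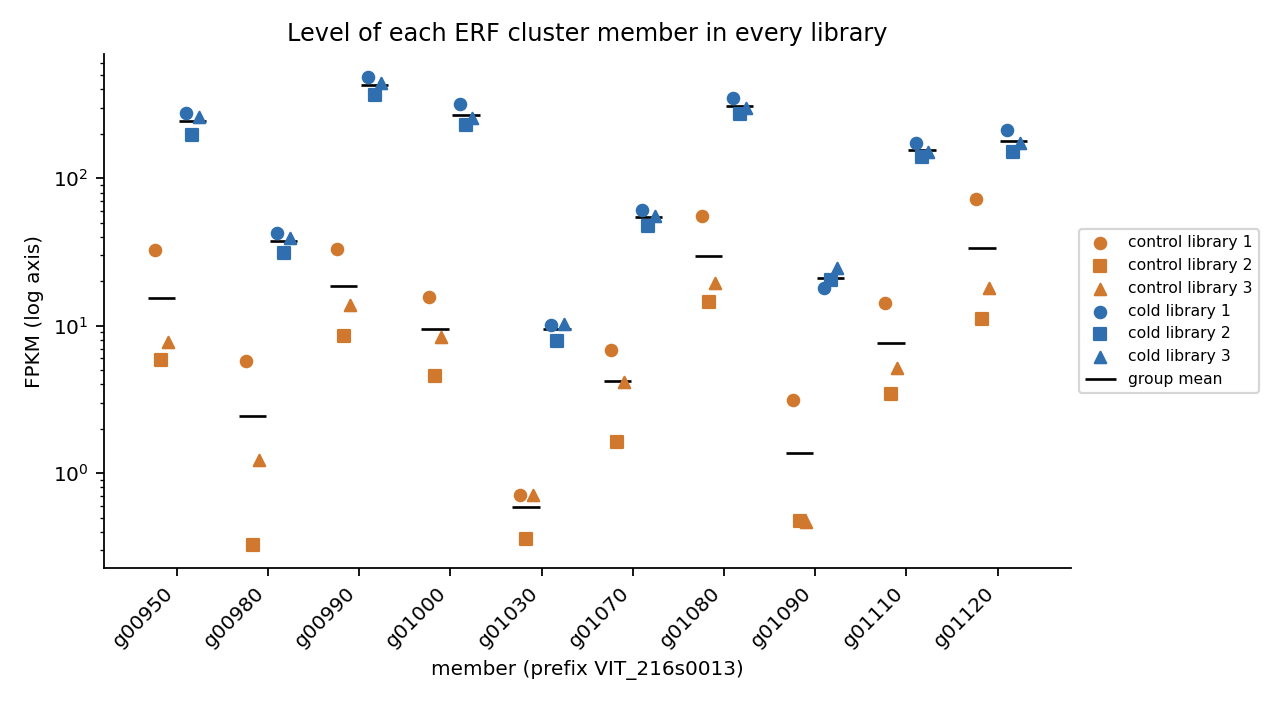
Level of each of the 10 members (FPKM, log axis) in the 3 control libraries (orange) and the 3 cold libraries (blue), with symbols for library number and black lines for group means. In every member all cold points lie above all control points, with the narrowest gap in g01120, and control library 1 is the top orange point in 9 of the 10.

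The most abundant member in cold was VIT_216s0013g00990. Its level was 33.1, 8.58 and 13.8 FPKM in control libraries 1, 2 and 3 and 482, 369.7 and 442 FPKM in cold libraries 1, 2 and 3. Control library 1 was high among the controls, and the groups lay 11.2-fold apart at their nearest points. The mean was 18.5 ± 12.9 FPKM in control and 431 ± 57.0 FPKM in cold (SD, n = 3 each), and the log2 change 4.67 ± 0.43 (SE). In cold it ranked 134 among all identifiers by mean level, against 5352 in control.

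VIT_216s0013g01080 ranked 2 among the members by mean level in control as in cold. Among all identifiers it ranked 3456 in control and 190 in cold. Its level was 55.6, 14.5 and 19.4 FPKM in the control libraries and 349, 272 and 300.3 FPKM in the cold libraries. Cold libraries 1 and 2 marked the top and the bottom of the cold range, and the lowest of them lay 4.90-fold above the highest control library. The log2 change was 3.55 ± 0.45 (SE).

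VIT_216s0013g01000 had the largest log2 change of the members. Control libraries 1, 2 and 3 held 15.6, 4.57 and 8.36 FPKM, and cold libraries 1, 2 and 3 held 321, 230.4 and 257 FPKM. The gap between the groups was the widest of the 10 members, with the lowest cold library 14.8-fold above the highest control library. Its log2 change was 4.81 ± 0.37 (SE), which ranked 24 among the tested genes of the whole table.

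VIT_216s0013g00950, the first gene of the array in the numbering, was at 32.5, 5.82 and 7.76 FPKM in control and at 279, 197 and 261 FPKM in cold. Control library 1 was 4.79-fold above the mean of the other control libraries, yet 6.05-fold below the lowest cold library. The log2 change was 4.27 ± 0.57 (SE).

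VIT_216s0013g01120, the last gene of the array, had the smallest ratio of means and the least separated groups. Its control level was 71.9, 11.2 and 17.9 FPKM and its cold level 214, 150.0 and 175 FPKM. Control library 1 reached 40.0% of the cold mean, the highest such share among the members, and the lowest cold library was 2.09-fold above it. The mean was 33.7 ± 33.3 FPKM in control and 179 ± 32.1 FPKM in cold (SD, n = 3 each), and the log2 change 2.80 ± 0.62 (SE). Without control library 1 the ratio of means went from 5.33 to 12.3.

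VIT_216s0013g01110 has the longest gene model, 2139 bases as implied by the FPKM steps, where 8 of the 10 lie between 930 and 1125 bases. It stood at 14.3, 3.44 and 5.19 FPKM in control and at 174, 139 and 151 FPKM in cold. The groups were 9.74-fold apart at their nearest points, and the log2 change was 4.37 ± 0.42 (SE).

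By mean level these 6 members ranked between 134 and 522 among all identifiers in cold and between 3067 and 9723 in control. The other 4 members stayed below 100 FPKM in every library. VIT_216s0013g01070 was at 6.80, 1.64 and 4.15 FPKM in control and at 60.9, 47.5 and 55.8 FPKM in cold, a log2 change of 3.55 ± 0.37 (SE). VIT_216s0013g00980 was at 5.75, 0.327 and 1.23 FPKM in control and at 42.3, 30.9 and 39.5 FPKM in cold, a log2 change of 3.82 ± 0.55 (SE). Neither gene's groups overlapped, and g00980 had the largest excess in control library 1, 7.36-fold over the mean of the other control libraries. Only 5 reads of g00980 were counted in control library 2.

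VIT_216s0013g01090 was at 3.16, 0.474 and 0.470 FPKM in control and at 18.0, 20.4 and 24.6 FPKM in cold. Here the lowest cold value came from library 1, not library 2, and control libraries 2 and 3 held 8 reads each. The log2 change was 3.39 ± 0.41 (SE).

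VIT_216s0013g01030 was the weakest member, with 0.706, 0.358 and 0.710 FPKM in control and 10.2, 7.86 and 10.3 FPKM in cold. It was the only member without an excess of 2-fold or more in control library 1. These levels rest on 4, 2 and 4 reads in control and 65, 52 and 74 in cold, at an implied length of 340 bases. The pooled libraries gave a ratio of 16.0, with an exact 95% interval for counting error of 8.49 to 33.8. In the other 9 members the pooled control reads numbered from 70 (g01090) to 1763 (g01120) and the pooled cold reads from 1290 (g01090) to 24699 (g00990), so counting error was smaller there. The log2 change of g01030, 2.71 ± 0.16 (SE), understates its ratio, since the added 1 FPKM exceeds its control mean of 0.591 FPKM. With a mean under 1 FPKM in control, this gene passed the filter only through its level in cold.

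The order of the members by level changed between the groups. In control the highest means belonged to g01120, g01080, g00990 and g00950, and in cold to g00990, g01080, g01000 and g00950. In control each of the 9 pairs of neighbours in this order overlapped across libraries, but this sets values of different libraries side by side. Within libraries, g01120 was above g01080 in control library 1 only. In all 3 control libraries g01080 was above g00990, g00990 above g00950, g01000 above g01110, g01110 above g01070, and g01070 above g00980. In 2 of the 3, g00950 was above g01000, g00980 above g01090, and g01090 above g01030. In cold 4 of the 9 pairs overlapped: g01080 with g01000, g01000 with g00950, g00950 with g01120, and g01120 with g01110. Below them the order g01110, g01070, g00980, g01090, g01030 had no overlap between neighbours. FPKM is scaled to gene length, so these levels can be set side by side. Reads shared between near-identical copies could shift them, and how the authors counted such reads is not known here.

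The make-up of the sum differed between the groups. In control g01120 made up 30.0%, 21.9% and 22.7% of the summed FPKM in libraries 1, 2 and 3, and in cold 11.0%, 10.2% and 10.2%. The share of g01080 was 23.2%, 28.6% and 24.6% in control and 17.9%, 18.6% and 17.5% in cold. Both shares were lower in all cold libraries than in any control library. In the other direction g00990 went from 13.8%, 16.9% and 17.4% to 24.7%, 25.2% and 25.7% of the sum. The share of g01000 went from 6.52%, 8.97% and 10.6% to 16.4%, 15.7% and 15.0%. The share of g01110 also lay higher in every cold library, with means of 6.44% ± 0.407 in control and 9.09% ± 0.375 in cold (SD, n = 3 each). For the other 5 members the shares of the groups overlapped. Shares of a sum are bound to each other, and all 10 members were higher in cold in FPKM.

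**Figure D2:**
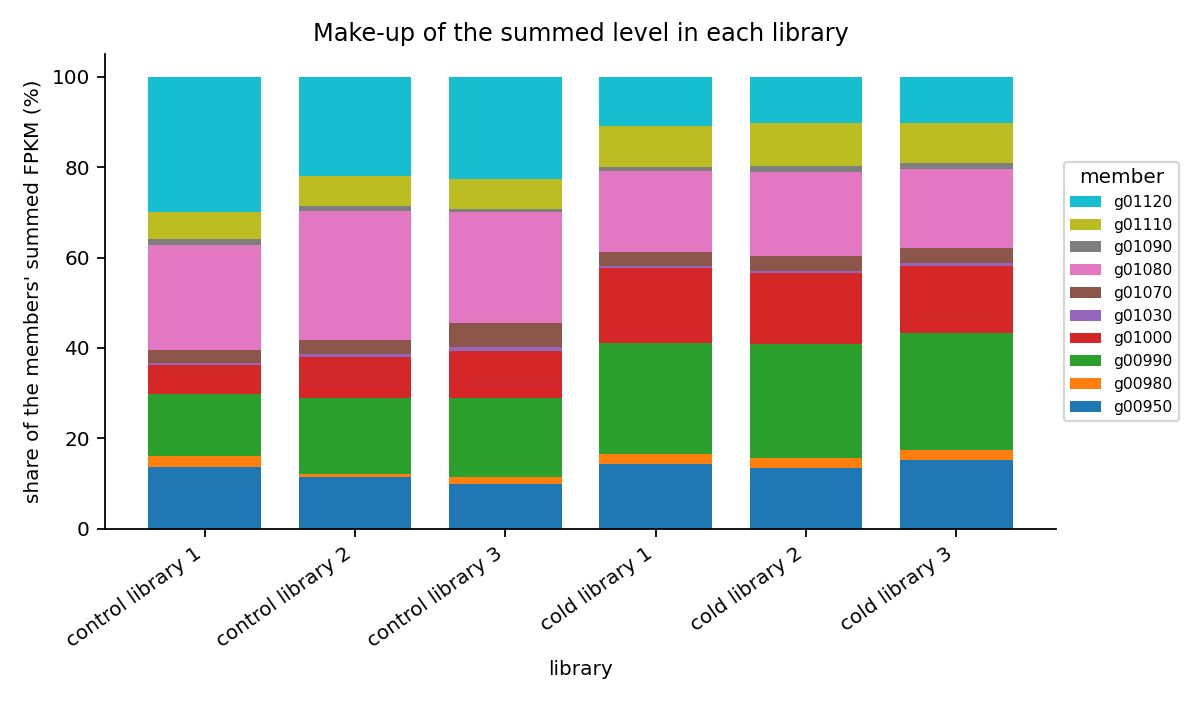
Share of each member in the summed FPKM of the 10 members (stacked bars, %), for each of the 6 libraries. The g01120 band at the top narrows from between 21.9% and 30.0% in control to between 10.2% and 11.0% in cold, while the g00990 band widens to between 24.7% and 25.7%.

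Over all libraries the members varied more within the control group than within the cold group, a difference that was smaller for most members without control library 1. The coefficient of variation (SD as a share of the mean) ran from 34.2% to 119% in control and from 11.5% to 17.9% in cold, and it was larger in control for all 10 members, as for 62.1% of all tested genes. Without control library 1 the median control coefficient over the members went from 75.7% to 32.8%, and it was larger than in cold for 9 of the 10, as for 36.8% of all tested genes. The exception was g01090, at 0.541% over the other control libraries, with 8 reads in each, and 15.9% in cold. In g01120 the control coefficient went from 98.8% to 32.8%. Without control library 1 the coefficients rest on control libraries 2 and 3 alone. Counting error adds to the control coefficients of g01030, g00980 and g01090, which had few reads in some control libraries. Its part in the spread was not tested. The 3 cold libraries differed by between 1.25-fold and 1.42-fold from lowest to highest. For 9 of the 10 members cold library 2 had the lowest value of its group, as it had for 33.5% of all tested genes. Cold library 1 had the highest for 8 of the 10, against 29.2%. Control library 2 was the lowest control library for 9 members, against 21.8% of the tested genes. Among the 362 genes called at least 4-fold higher after cold, these shares were 23.8%, 37.0% and 35.9%, in the same order.

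Control library 1 was at least 2-fold above the mean of control libraries 2 and 3 for 9 of the 10 members. The ratio ran from 1.32 in g01030 to 7.36 in g00980 with a median of 3.29, where the median over all tested genes was 0.989. Among the 1133 genes called at least 2-fold higher after cold the share with such an excess was 22.3%. In this library the members stood at between 5.79% (g01000) and 40.0% (g01120) of their cold means, and in the other control libraries at between 2.08% (g00980) and 8.11% (g01120). With the control group held to libraries 2 and 3, the log2 changes ran from 2.77 to 5.21 with a median of 4.29. The ratios of means then ran from 12.3 to 48.2, at least 1.5 times the ratio over all libraries for 7 of the 10. The exceptions were g01030 (17.7 against 15.9), g01070 (18.9 against 13.1) and g01000 (41.7 against 28.3). What set control library 1 apart was not tested.

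**Figure D3:**
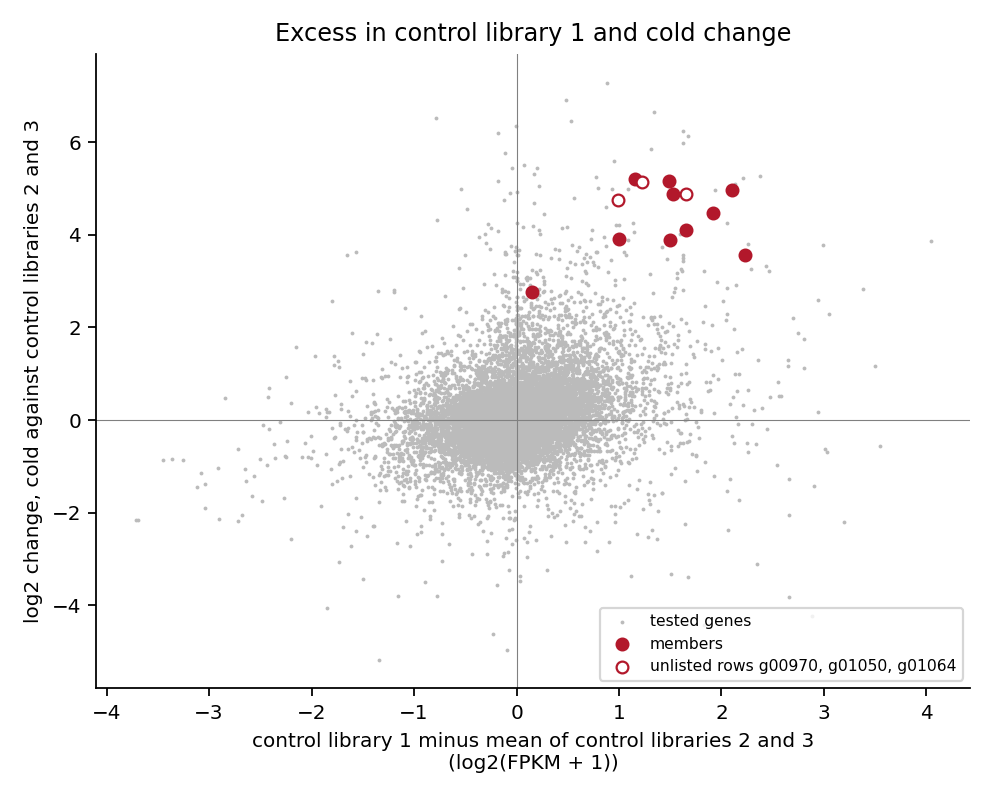
Each point is a tested gene: on the x axis its level in control library 1 minus that of the mean of control libraries 2 and 3, on the y axis its cold change against control libraries 2 and 3 alone, both on the log2(FPKM + 1) scale. Filled red points are the 10 members and open red points are 3 unlisted rows of the array; all but g01030 lie at the upper right, and g01030 lies nearest the zero line of the x axis.

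The stretch of numbering that holds the members has 18 rows, and the 8 unlisted ones fell into distinct kinds. Of these, 3 were called higher, 1 was tested and not called, 1 was under the filter, and 3 were at 0 in all libraries. On the log2(FPKM + 1) scale the changes of the 3 called rows lay inside the range of the members. The array was picked out on this contrast, so the calls of its unlisted rows are no independent support either. VIT_216s0013g00970 was at 5.05, 1.47 and 1.71 FPKM in control and at 114, 78.0 and 81.7 FPKM in cold. Its log2 change was 4.73 ± 0.35 (SE, limma-trend, adjusted p = 0.000406). By ratio of means g00970 was 33.3-fold higher, above every member (at most 28.3-fold). Its lowest cold library lay 15.5-fold above its highest control library, against at most 14.8-fold in the members. VIT_216s0013g01050 was at 7.22, 0.720 and 2.50 FPKM in control and at 78.1, 61.2 and 77.5 FPKM in cold, a log2 change of 4.31 ± 0.52 (SE; limma-trend, adjusted p = 0.00182). VIT_216s0013g01064 was at 6.86, 2.28 and 3.62 FPKM in control and at 106, 86.3 and 122 FPKM in cold, a log2 change of 4.41 ± 0.31 (SE; limma-trend, adjusted p = 0.000368). In all of them control library 1 was the highest control library, and no groups overlapped, as in the members. What these rows encode is not annotated in the sources used here.

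The remaining unlisted rows were weak or silent. VIT_216s0013g01060 had 2, 0 and 0 reads in control and 13, 16 and 20 in cold; its pooled ratio of 20.5 has an exact 95% counting interval of 5.37 to 174. VIT_216s0013g01066 was at 0.0928, 0.470 and 0.653 FPKM in control and at 5.35, 1.35 and 0.0728 FPKM in cold. Its groups overlapped, with cold library 3 below every control library, and its log2 change of 0.86 ± 0.61 (SE) did not pass (limma-trend, adjusted p = 0.310). VIT_216s0013g01010, VIT_216s0013g01040 and VIT_216s0013g01062 were listed at 0 throughout.

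None of the 3 nearest rows with a value on either side of the array was called. VIT_216s0013g00940, the row before the first member, was at 6.78, 7.49 and 8.71 FPKM in control and at 6.08, 7.39 and 7.25 FPKM in cold, with a log2 change of -0.13 ± 0.12 (SE; limma-trend, adjusted p = 0.441). Of the rows before it, VIT_216s0013g00930 averaged 0.960 FPKM in control, 0.704 FPKM in cold, and was not tested. VIT_216s0013g00920 had means of 3.18 and 3.73 FPKM and did not pass (limma-trend, adjusted p = 0.607). In each of these rows the cold and control libraries overlapped. After the last member, VIT_216s0013g01130 was at 0 in control and at 5.78, 0.697 and 0 FPKM in cold, and did not pass (limma-trend, adjusted p = 0.209). VIT_216s0013g01140 was at 22.2, 23.6 and 20.8 FPKM in control and at 21.9, 21.9 and 23.8 FPKM in cold, a log2 change of 0.02 ± 0.08 (SE). Its groups overlapped and lay close together. VIT_216s0013g01180, the third row with a value on that side, had means of 1.06 and 0.472 FPKM and, like g00930, was under the filter and not tested.

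Of the 20 rows that flank the array, 10 on each side, 10 were at 0 in all libraries and 7 were tested. Of those 7, 1 was called higher (14.3%, against 21.0% of all tested genes), VIT_216s0013g00900, which is named after its values were seen. It stood at 87.5, 21.9 and 25.5 FPKM in control and at 141, 114 and 151 FPKM in cold, a log2 change of 1.84 ± 0.49 (SE; limma-trend, adjusted p = 0.0287). Control library 1 was again the highest control library, and the groups did not overlap. The row before it, VIT_216s0013g00890, was at 52.7, 6.81 and 6.59 FPKM in control and at 25.8, 20.0 and 30.4 FPKM in cold, so control library 1 lay above all cold libraries. In the rest of the scaffold field, outside the range of the array, 13 of 60 tested genes (21.7%) were called at least 2-fold higher, against 6.60% of all tested genes; the difference between these shares was not tested. Over all 60 the median log2 change was 0.16 and the largest 3.66.

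**Figure D4:**
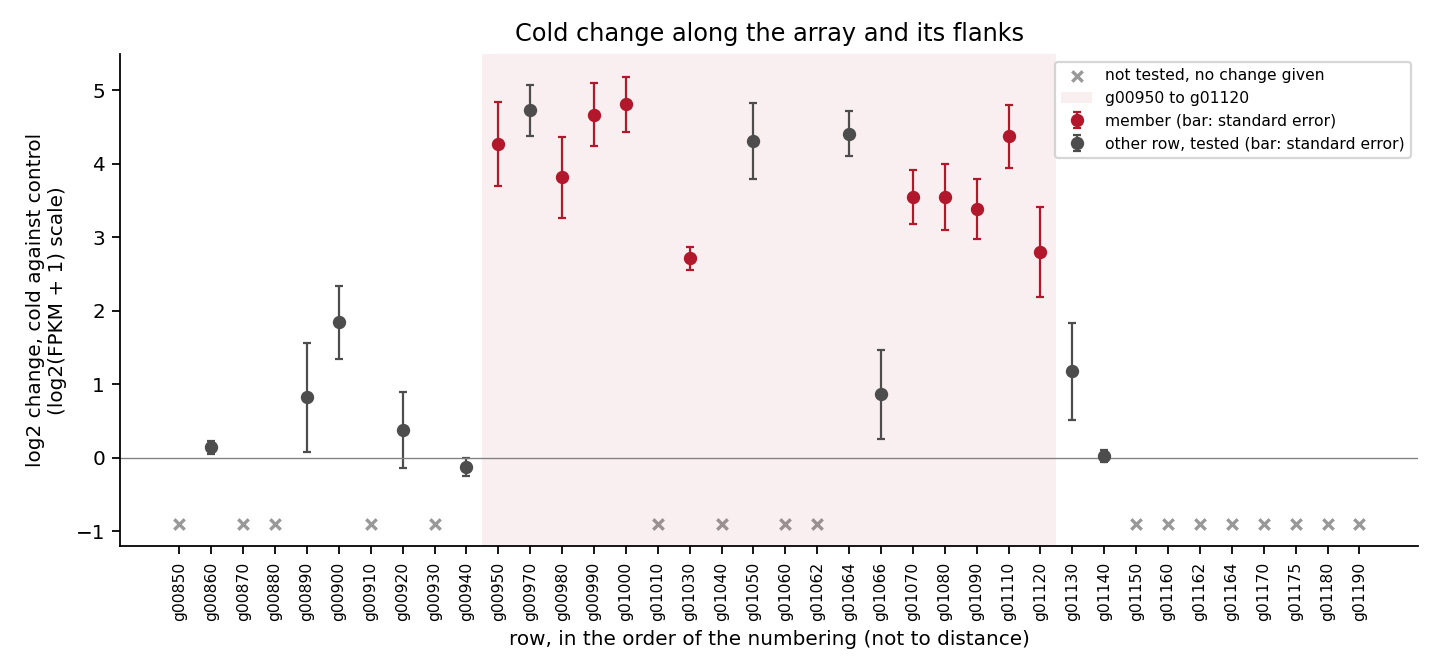
Log2 change after cold (log2(FPKM + 1) scale, bars for the standard error) of each row of the array, shaded, and of 10 rows on each side, in the order of the numbering. Red points are the members, between 2.71 and 4.81. Dark points are other tested rows, of which g00970, g01050 and g01064 lie among the members. Crosses below the zero line mark rows that were not tested, for which no change is given.

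Genes outside the list were ranked by how closely their level followed the summed level of the members over the 6 libraries, by Pearson's r of log2(FPKM + 1). The measure is led by the difference between cold and control, which all close genes share, and ignores the size of the change. The members themselves had r between 0.966 (g01030) and 0.9997 (g01080). Each member is part of the sum it was compared with, so its r is partly built in. Of the 17155 tested genes, 76 outside the list reached 0.99. VIT_212s0134g00240 came first with r of 0.9993; it was at 73.3, 12.4 and 17.7 FPKM in control and at 656, 535 and 605 FPKM in cold. VIT_206s0080g01090 followed with r of 0.9993, at 67.1, 11.9 and 21.7 FPKM in control and at 569, 503 and 537 FPKM in cold. Both had the members' excess in control library 1, 4.86-fold and 3.99-fold over the mean of the other control libraries. VIT_218s0001g13610 (r of 0.9988) and VIT_214s0006g02620 (r of 0.9984) kept the same library order in control but changed little, with ratios of means of 1.73 and 1.30. The fifth was VIT_216s0013g01050, the unlisted row inside the array, with r of 0.9979.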

How the data were processed

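The authors deposited 1 table of FPKM values, 31845 identifiers by 6 libraries, whose column names equal the sample titles. FastQC, cutadapt, STAR, HTSeq and DESeq2 are named, without roles, per the submitters' processing notes. For genome build, annotation, strand setting and reads with several matches: not given in the sources used here.

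Within a gene the deposited FPKM values were whole multiples of a step, which gave whole reads, library totals and gene lengths for 25054 of the 25054 identifiers above 0 (within 0.001 reads, taking the smallest whole counts). These served for depth, counting intervals and an alternative fit; intervals cover counting error only.

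The 17155 genes averaging 1 FPKM or more across libraries were fitted with limma-trend on log2(FPKM + 1), two-sided, with Benjamini-Hochberg adjustment over all of them at 0.05. All 10 members passed the filter. The fit and the recovery of reads were also run on simulated data. These held no outlying library, and exact recovery was not scored for genes with few reads. They therefore do not bear on control library 1 or on the weakest members. The software was limma 3.58.1 in R 4.3.3, and SciPy 1.17.1 with pandas 2.3.3 in Python 3.11.15.

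The members and lists were chosen with earlier results of these data known. Genes named beside the members are the unlisted rows of the array, the 3 nearest rows with a value on each side and the 5 genes most alike by Pearson's r; VIT_216s0013g00890 and VIT_216s0013g00900 were added after their values were seen. Planned lists by annotated function, leaf markers and sequence features were not run, since identifiers were not paired with names or sequences here. The comparison of control library 1 with the others was chosen after seeing the data.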

Additional observations from a re-analysis of the deposited data

How the results depend on the processing

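The members were chosen on the cold contrast, so their direction and calls under other settings say nothing of stability. Each of the 10 was higher after cold under all 14 alternatives. The only calls lost were those of g01120, without control library 3 (limma-trend, adjusted p = 0.0527) and without cold library 1 (limma-trend, adjusted p = 0.0528). Changing the filter or adding a replicate block leaves a member's log2 change as it was, so those values could not move. Of the 140 values of the members, these included, 135 moved by less than the spread between libraries. The other 5 were larger, for g01030 and g01090 with a pseudocount of 0.1 (3.82 and 4.36) and for g00980, g01030 and g01090 with limma-voom on recovered reads (4.75, 3.84 and 4.49), neither of which adds 1 FPKM to low levels. The summed ratio was 13.4 under quantile normalization and 12.97 when libraries were scaled by median of ratios; it ran from 10.8 to 26.3 with a library left out, the top without control library 1. Over the whole table, genes higher after cold numbered 2253 to 4180 with a library left out, the fewest without cold library 2, for which the cause was not tested. Those higher at least 2-fold numbered 684 when a mean of 5 FPKM was required, where fewer genes were tested. In the main fit 3606 genes, 21.0% of those tested, were called higher. The number was 2807 with median-of-ratios scaling, 2672 with quantile normalization and 4931 with library weights, so that share depends on the processing. A fit with a replicate block gave 2480 genes higher. Libraries of the same number deviated from their group means with correlations of -0.26, -0.13 and -0.28. With 3 libraries in each group these values cannot settle whether the numbers pair the libraries. With no filter on low values 4 unlisted rows of the array were called, not 3. Depth limits g01030, g01060 and the low control levels of g00980 and g01090, which rest on a few reads.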
